A study of Mus musculus with 16 samples.

Results

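The comparison described here is that of retinas of mice without Nxnl1 (Nxnl1-/-, knockout) with retinas of wild-type mice (Nxnl1+/+), both taken 24 h after exposure to light of 2500 lux. Its members were chosen by the genotype and dose in the sample titles, and they were 6 of the 16 arrays of the series, 3 per genotype. All groups were BALB/c, an albino strain, with males and females in equal proportion and an age of 11 to 16 weeks, and had been raised in cycles of 50 lux light and darkness. Each mouse spent 16 h in the dark and then 1 h under cool white fluorescent lamps, and recovered in darkness for 24 h before the neural retina was separated from the retinal pigment epithelium (RPE). The other groups used for reference were wild type and knockout at 50 lux (2 and 3 arrays) and at 5000 lux (3 and 2 arrays). The series text speaks of 2 doses tested in triplicate, whereas the labels give 3 light levels. The labels do not say which part of Nxnl1 is missing in the knockout. The titles call each array a biological replicate but leave unsaid whether its RNA came from a single mouse or from several. The p-values therefore measure only the spread between these arrays, which may in part be technical.

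The product of Nxnl1, a thioredoxin-like protein, is known as rod-derived cone viability factor. Its short form is secreted by rods and helps cones to survive, and its long form is a redox-active protein inside the cell. Bright light damages photoreceptors, above all in albino eyes, where no pigment shades the retina. The damaged cells release signals such as endothelins and cytokines, and the Müller glia, the support cells that span the retina, answer by switching on receptors, acute-phase proteins and growth factors. Chemokines released in the same response attract microglia and monocytes.

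Some features of the 6 arrays came before any test. Levels are log2 intensities throughout, on which a step of 1 is a doubling, and 2.21 is the lowest value of the data. Median intensity lay between 15.4 and 15.8 on the 6 arrays, and replicates correlated at r of 0.982 to 0.995 over the probe sets tested. Wild-type replicate 3 stood nearer to the knockout arrays than its 2 companions did. On the first principal component of all 16 arrays it lay at 28.6, the other wild-type arrays at 11.0 and 14.3, and the knockout arrays at 30.7, 27.8 and 33.8. Rod markers were bright on all 6 arrays, with a mean over 15 genes of 12.08 to 12.43, as the label retina implies. Signal of lens genes differed between the arrays of the 2 genotypes, although 0 of these genes passed the test. The mean level of 12 crystallin and lens fibre genes was 3.40, 3.31 and 3.32 on the wild-type arrays and 4.29, 8.11 and 4.35 on the knockout arrays, highest on replicate 2. In 7 of the 12 every knockout array lay above all wild-type arrays, beside 5.03% of all genes measured. The RPE genes, of which 0 passed, were dimmest on knockout replicates 2 and 3: their mean was 6.71, 6.78 and 7.18 in wild type, 6.78 on knockout replicate 1, 6.38 on replicate 3 and lowest on replicate 2, with Rpe65 between 6.06 and 8.25. Sex-linked genes differed between arrays. Xist, expressed from the inactive X chromosome of females, stood at 12.04, 9.88 and 11.49 in wild type and at 2.92, 11.94 and 12.06 in knockout, and the Y-linked gene Eif2s3y stood at 2.21, 8.83 and 7.37 in wild type and at 9.56, 2.21 and 2.21 in knockout. Wild-type replicates 2 and 3 thus carried both signals, as RNA from mice of both sexes would. Knockout replicate 1 carried only that of the Y-linked gene, and the other 3 arrays only Xist, although the labels state equal proportions of the sexes. The part of lens RNA, RPE RNA and sex in the results below was not tested, and the calls are given with each array left out.

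Nxnl1 itself was at 6.65, 6.84 and 5.83 on the wild-type arrays and at 2.86, 2.24 and 2.24 on the knockout arrays. The groups were far apart, and knockout replicate 1 was the highest of the knockout arrays. The fall was at least 5.43-fold, counted from log2 4 because no knockout array exceeded that level, with a log2 difference of -3.99 (SE 0.28, adjusted p = 4.1e-05). A second Nxnl1 probe set was at or below log2 4 on every array of the comparison, from 2.41 to 2.81, and was not tested. Adjusted p here is limma's Benjamini-Hochberg value over 23320 probe sets, and 0.05 was the threshold. Nxnl2, the related gene whose product also supports photoreceptors, had 10.82, 10.84 and 10.59 in wild type and 10.68, 10.56 and 10.51 in knockout on its brightest probe set. The difference of -0.17 (SE 0.10, adjusted p = 0.994) did not pass the test. On a second Nxnl2 probe set all 3 knockout arrays lay below all 3 wild-type arrays, with a difference of -0.37 (SE 0.21) and an adjusted p of 0.965.

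Beyond the deleted gene, few transcripts passed the test, and nearly all of them were higher without Nxnl1. A chemokine, an interferon-induced protein, a cytokine receptor, antioxidant genes, an endothelin receptor, a neuropeptide precursor and growth-related genes were among them. In limma 22 probe sets passed, 0.0943% of those tested: 19 were higher and 3 lower in knockout, 0.0815% and 0.0129%. With the brightest probe set standing for each of 10916 genes, 15 genes passed (0.137%), 13 of them higher (0.119%) and 2 lower (0.0183%). At an unadjusted p under 0.05 there were 636 probe sets higher and 667 lower. Of the 22 probe sets past the threshold 19 had 1 gene symbol, 2 had none and 1 had several (5930430L01Rik and Katnal1, log2 difference -0.77). An exact permutation test of 3 arrays against 3 cannot give a two-sided p below 0.1, so the calls rest on the spread that limma shares over all 16 arrays and all probe sets.

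The number of calls depended on single arrays. Without wild-type replicate 1, 2 probe sets passed, without replicate 2, 3 passed, and without replicate 3, 86 passed (74 higher, 12 lower). Leaving out knockout replicate 1, 2 or 3 left 14, 5 and 6. Nxnl1 alone among the 15 genes passed in all 6 of these fits. Gpx3 passed in 0 of them, and each of the other genes in 1 to 3. In 8 of the 13 genes called higher, wild-type replicate 3 was the highest of the wild-type arrays. The direction of all 15 genes was the same in each fit, but this was fixed in advance. In each of them the arrays of the 2 genotypes did not overlap, so leaving out an array could not turn the sign.

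**Figure D1:**
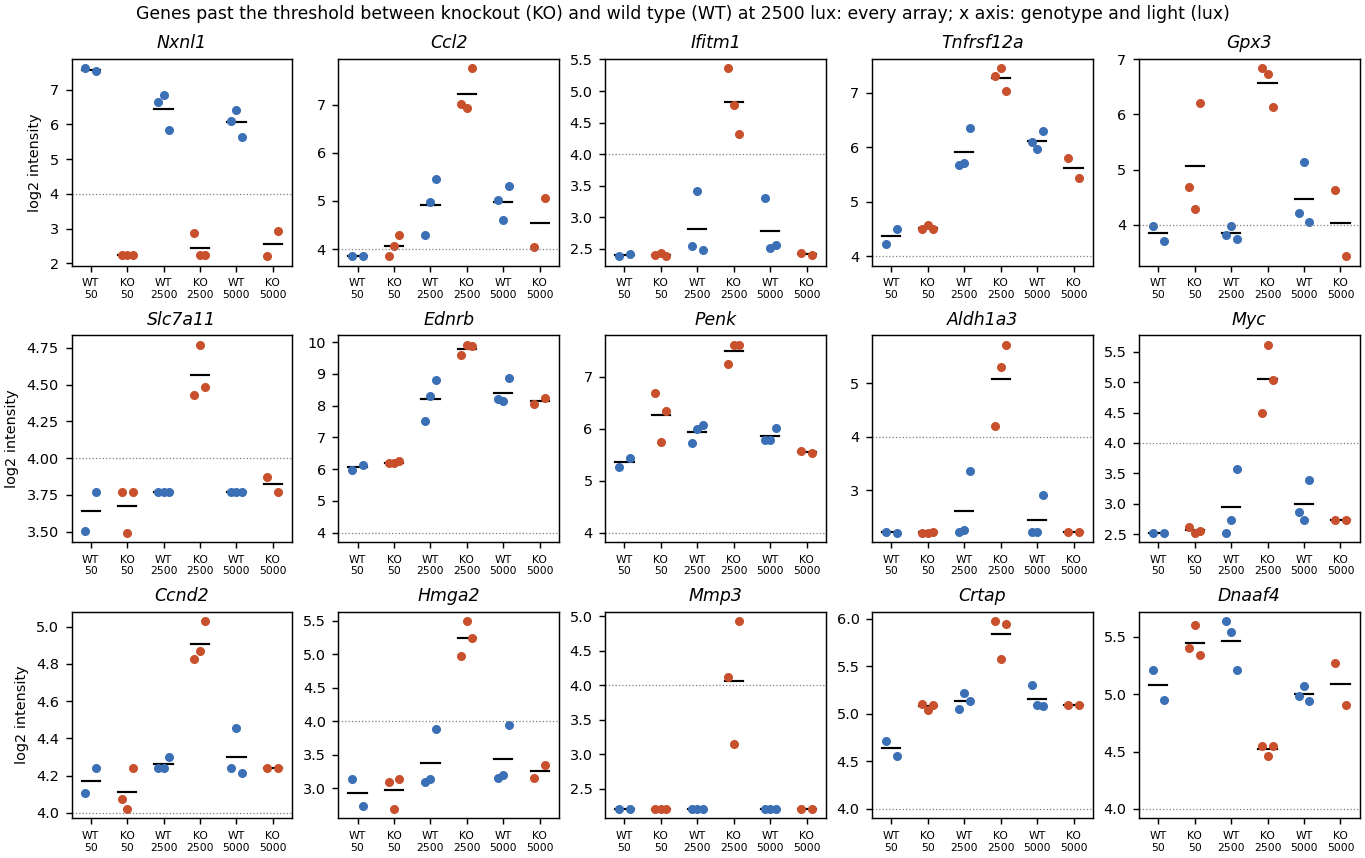
Log2 intensity (y axes, 1 panel per gene, with scales that differ) of the 15 genes past the threshold at 2500 lux on all 16 arrays, by genotype and light in lux (x axes); points are arrays (blue wild type, orange knockout), bars group means, and the dotted line log2 4. Ccl2 stands at 6.94 to 7.76 in the 3 knockout arrays at 2500 lux and at 5.45 or less on all others, whereas Dnaaf4 dips in that group and Nxnl1 is low in every knockout group.

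Genes of immune and cytokine signalling came first among these. Ccl2, the chemokine that draws monocytes, was at 4.29, 4.98 and 5.45 in wild type and at 7.01, 6.94 and 7.76 in knockout. The lowest knockout array was well above the highest wild-type array, and the group means differed 5.02-fold (log2 2.33, SE 0.32, adjusted p = 0.018). Ifitm1, an interferon-induced membrane protein, was at 2.54, 3.42 and 2.47 in wild type and at 5.36, 4.78 and 4.32 in knockout. All wild-type arrays were below log2 4, the level under which a signal is treated here as dim, so its rise was at least 1.76-fold (adjusted p = 0.020). Tnfrsf12a, the receptor of the cytokine TWEAK, was at 5.67, 5.72 and 6.34 in wild type and at 7.31, 7.44 and 7.04 in knockout, a 2.56-fold rise (log2 1.35, SE 0.18, adjusted p = 0.015). That probe set may also bind related transcripts, by the design class in its name; a second one that is not of this class gave 5.13, 5.14 and 5.14 against 6.64, 6.87 and 6.58, a log2 difference of 1.56 (SE 0.16, adjusted p = 0.0017).

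Antioxidant genes followed. Gpx3, a secreted glutathione peroxidase that removes peroxides, was at 3.81, 3.97 and 3.73 in wild type and at 6.84, 6.74 and 6.13 in knockout, at least 5.94-fold higher (adjusted p = 0.041). The threshold was missed whichever of the 6 arrays was left out, with an adjusted p of up to 0.231. Slc7a11, the cystine transporter that feeds glutathione synthesis, lay at 3.77 on all 3 wild-type arrays and at 4.43, 4.77 and 4.48 in knockout. The rise was at least 1.48-fold (log2 difference 0.79, SE 0.11, adjusted p = 0.020). The value 3.77 recurred on all 3 wild-type arrays at 5000 lux. A second Slc7a11 probe set, at 2.43 to 2.65 on the arrays of the comparison, had overlapping groups and was not tested.

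Slc7a11 and the matrix protease gene Mmp3 were the 2 genes called higher whose start region held a searched motif, so the 250 bases before their starts are shown (RefSeq, GRCm38.p6, gene strand). The capitals mark the match, which is TTCNNNGAA, the STAT motif, in Slc7a11 (chr3:50443614-50443863, minus strand) and TGANTCA, the AP-1 motif, in Mmp3 (chr9:7445572-7445821, plus strand).
Slc7a11: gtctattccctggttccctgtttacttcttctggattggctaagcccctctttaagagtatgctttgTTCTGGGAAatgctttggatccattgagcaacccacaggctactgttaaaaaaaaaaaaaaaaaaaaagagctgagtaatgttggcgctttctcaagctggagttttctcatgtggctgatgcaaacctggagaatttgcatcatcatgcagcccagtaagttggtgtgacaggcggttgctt
Mmp3: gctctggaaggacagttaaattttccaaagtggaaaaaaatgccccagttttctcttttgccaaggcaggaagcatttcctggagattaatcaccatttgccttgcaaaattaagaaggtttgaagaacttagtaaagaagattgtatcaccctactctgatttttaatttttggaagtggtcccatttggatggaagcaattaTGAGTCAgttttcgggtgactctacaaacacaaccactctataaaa
The match in Slc7a11 lay at -183 to -175 from the start and that in Mmp3 at -46 to -40. Promoters of 8 of the 13 genes were in the table: those of Gpx3, Ifitm1, Hmga2, Mmp3, Ednrb, Tnfrsf12a, Slc7a11 and Crtap. Searched on both strands, AP-1 was found in 1 of the 8 and in 7.82% of 27025 genes, and STAT in 1 of the 8 and in 8.13%. The antioxidant response element core TGACNNNGC was found in 0 of the 8 and 11.5% of all genes, and the C/EBP motif TTGCNNCAA in 0 of the 8 and 1.98%. These shares describe letters in a window of this length and do not show binding.

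Mmp3 encodes a secreted protease that cuts matrix proteins. It lay at the lowest value, 2.21, on all 3 wild-type arrays and on all 10 arrays at the other 2 doses, and at 4.12, 3.16 and 4.93 in knockout at 2500 lux. Signal was thus seen in that group and in no other, but 1 of its 3 arrays stayed below log2 4, and the bound on the rise is at least 1.05-fold (log2 difference 1.86, SE 0.29, adjusted p = 0.035). Crtap, part of the complex that modifies prolines in collagen, was at 5.05, 5.21 and 5.14 in wild type and at 5.97, 5.58 and 5.95 in knockout, 1.62-fold higher (adjusted p = 0.041). Of 20 measured genes of basement membrane and matrix, Mmp3 was the 1 that passed; the median difference was 0.11. In Col18a1, the next by p, the groups overlapped (log2 0.70, adjusted p = 0.518).

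Ednrb, the endothelin receptor that Müller glia carry, was at 7.53, 8.32 and 8.82 in wild type and at 9.59, 9.91 and 9.86 in knockout. The wild-type arrays spread over more than 1 log2 unit, the knockout arrays over less, and the means differed 2.96-fold (log2 1.57, SE 0.26, adjusted p = 0.048). All 3 Ednrb probe sets passed, the others with log2 differences of 2.01 and 1.54. On the first of these the wild-type arrays were at 2.63, 2.63 and 2.98, all below log2 4. The rise on it was thus at least 1.69-fold. Penk, which encodes the precursor of the enkephalin opioid peptides, was at 5.72, 5.99 and 6.08 in wild type and at 7.25, 7.61 and 7.62 in knockout. Spread within each group was small, and Penk rose 2.95-fold (log2 1.56, SE 0.20, adjusted p = 0.013). Aldh1a3, an enzyme that makes retinoic acid from retinal, was at 2.21, 2.25 and 3.37 in wild type and at 4.20, 5.31 and 5.72 in knockout, at least 2.11-fold higher (adjusted p = 0.020). Its 2 other probe sets did not pass the filter on dim signals.

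Growth-related genes completed the group. Myc, a transcription factor that drives growth and is induced early in many responses, was at 2.53, 2.73 and 3.58 in wild type and at 4.50, 5.61 and 5.03 in knockout, at least 2.07-fold higher (adjusted p = 0.015). Hmga2, a chromatin protein of fetal and dividing cells, was at 3.09, 3.14 and 3.89 in wild type and at 4.98, 5.49 and 5.24 in knockout, at least 2.36-fold higher (adjusted p = 0.015). In both genes wild-type replicate 3 was the highest of its group and still below every knockout array. A second Hmga2 probe set passed as well (log2 2.22, adjusted p = 0.041). Its wild-type arrays were all below log2 4, so this rise was at least 1.98-fold. Ccnd2, a cyclin of the step from growth to DNA synthesis, was at 4.24, 4.24 and 4.30 in wild type and at 4.83, 4.87 and 5.03 in knockout, 1.57-fold higher (adjusted p = 0.034). This probe set may bind related transcripts, and the other 6 of the gene did not pass the filter. Of the 7 measured cell cycle genes Ccnd2 was the 1 that passed. Ccnd1, another D-type cyclin, had 8.16, 8.66 and 8.90 against 9.24, 9.38 and 9.29 (adjusted p = 0.273), while Tyms and Ccna2, genes of DNA synthesis and division, had differences of -0.66 and -0.47 (adjusted p = 0.613 and 0.767).

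Dnaaf4, which encodes a factor that assembles the dynein motors of cilia, was the 1 gene besides Nxnl1 called lower. It was at 5.63, 5.54 and 5.21 in wild type and at 4.55, 4.46 and 4.55 in knockout, 1.92-fold lower (log2 -0.94, SE 0.13, adjusted p = 0.020). The next genes in this direction by p did not pass. Rnase4, a secreted ribonuclease, had 7.26, 7.61 and 7.49 against 6.52, 6.35 and 6.15 (adjusted p = 0.085), and 1810014B01Rik a difference of -0.53 (adjusted p = 0.107). Knockout arrays were below all wild-type arrays in both.

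**Figure D2:**
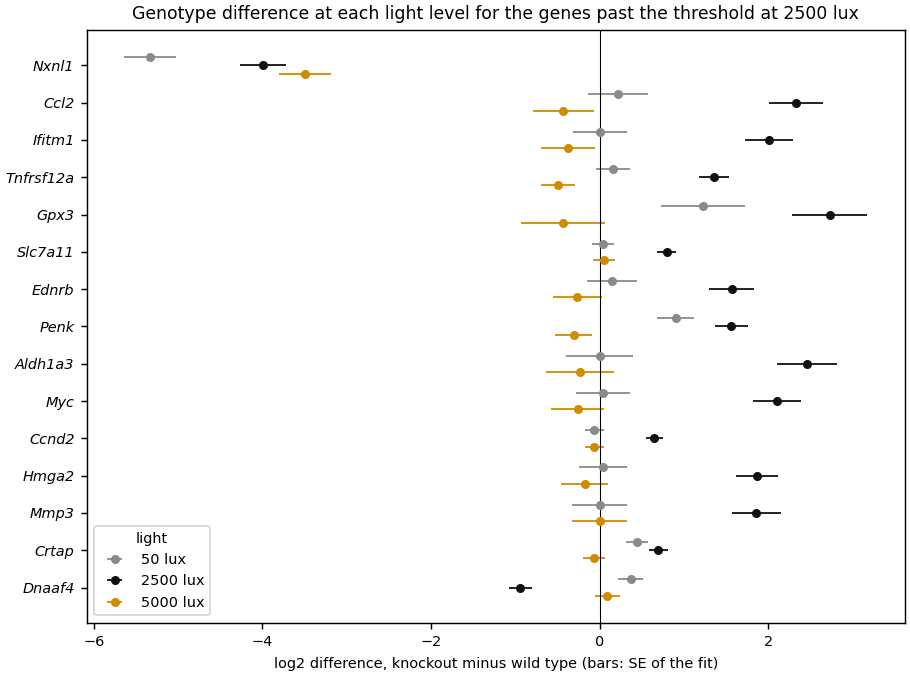
Log2 difference between knockout and wild type (x axis; bars are the SE of the fit) for the 15 genes (y axis) at 50, 2500 and 5000 lux (grey, black and amber). Ccl2 stands at 2.33 at 2500 lux, at 0.22 at 50 lux and at -0.43 at 5000 lux, Penk and Crtap also lie to the right of 0 at 50 lux, and Nxnl1 is low at each dose; for the 7 genes called higher whose wild-type arrays at 2500 lux all lay below log2 4, the size at 2500 lux is not exact.

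The same genotype difference at the other 2 doses was small for most of these genes. Aldh1a3, Ifitm1, Mmp3, Myc, Hmga2 and Slc7a11 were above log2 4 on knockout arrays at 2500 lux only. They thus entered the test through that group alone, and their values at the other doses were dim on every array. Their small differences there follow from this selection and support nothing further, although they enter the counts below. At 5000 lux 11 of the 13 genes called higher had a difference below 0, beside 49.4% of all genes, and at 50 lux 11 had one above 0, beside 72.1% of all genes. None of the 13 passed at either dose. Ccl2 had differences of 0.22 and -0.43 at 50 and 5000 lux, and Ednrb 0.15 and -0.26. Gpx3, Penk and Crtap were the exceptions at 50 lux, at 1.22 (adjusted p = 0.292), 0.90 (adjusted p = 0.117) and 0.44 (SE 0.13, adjusted p = 0.170). For Penk the 3 knockout arrays at 50 lux, at 6.69, 5.75 and 6.33, lay above both wild-type arrays at 5.27 and 5.45. For Crtap they were at 5.10, 5.04 and 5.09, also above the wild-type arrays at 4.71 and 4.56. Over all probe sets 48 were higher and 28 lower in knockout at 50 lux (0.206% and 0.12%). That balance turned to 71 higher and 92 lower without the filter on dim signals, and to 134 and 229 without knockout replicate 2 at 50 lux. At 5000 lux 0 were higher and 1, Nxnl1, lower (0% and 0.00429% of probe sets, the latter 0.00916% of genes; 243 higher and 297 lower at an unadjusted p under 0.05).

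Whether the difference at 2500 lux itself differed from those at the other doses was tested directly. On their brightest probe sets 0 of the 13 genes passed in either test. Probe sets of Tnfrsf12a and Ednrb other than the brightest did: against 50 lux the Tnfrsf12a difference was larger by 1.54 and the Ednrb difference by 2.56, and against 5000 lux by 1.87 and 2.79. The 2.79 came from a further Ednrb probe set that entered the test only through the knockout arrays at 2500 lux. That value thus supports nothing further. The Ednrb probe set that passed against 50 lux had a difference of -1.02 at 50 lux and of 1.54 at 2500 lux, whereas the gap of 1.42 on the brightest one did not pass (adjusted p = 0.348). The number of probe sets with a larger difference than at 50 lux fell from 3 to 0 without wild-type replicate 1 or 2 or knockout replicate 1 of the 50 lux arrays, without wild-type replicate 2 or knockout replicate 1 or 3 of the 2500 lux arrays, and with the pseudocount. Against 5000 lux it fell from 2 to 0 without wild-type replicate 1 or 2 or knockout replicate 1 or 3 of the 2500 lux arrays, without wild-type replicate 1 or either knockout array at 5000 lux, with array weights, and in the arrays of the test alone. Dnaaf4, with a difference of 0.37 at 50 lux, was past the threshold in the test against 50 lux at -1.31 (SE 0.20, adjusted p = 0.044). So was Rnase4, with a difference of -1.11 at 2500 lux and 1.55 at 50 lux. In Edn2, which encodes an endothelin made by stressed photoreceptors, and in Cebpd, a transcription factor of the acute-phase response, the differences at 50 lux were 3.79 and 2.36, and at 2500 lux 0.15 and 0.31. Edn2 stood at 10.04, 9.90 and 10.53 in wild type and at 10.11, 10.20 and 10.60 in knockout at 2500 lux, so the groups overlapped. In all, 3 probe sets had a larger and 8 a smaller difference at 2500 than at 50 lux (0.0129% and 0.0343% of those tested), and 2 a larger one than at 5000 lux (0.00858%). With 1 probe set per gene, 7 genes (0.0641%) had a smaller difference at 2500 than at 50 lux.

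Set against the 50 lux arrays of the same genotype, all 13 genes rose with 2500 lux in knockout (beside 8.87% of all genes), and 3 of them, Ednrb, Tnfrsf12a and Crtap, in wild type (beside 8.93%). These comparisons share the 2500 lux arrays that chose the 13 genes and support nothing further. Ccl2 changed by 3.17 in knockout and 1.05 in wild type (adjusted p = 1.8e-05 and 0.079), Ednrb by 3.58 and 2.16, Tnfrsf12a by 2.74 and 1.55, and Aldh1a3 by 2.86 and 0.40. 

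The remaining genes of the injury response were read through gene lists. A gene counts as measured where a probe set of it passed the filter on dim signals, so counts of measured members leave out part of each list, such as 8 of 35 glial reactivity and 8 of 39 interferon genes. In bulk retina, fewer cells of a type and less RNA per cell cannot be told apart. Over all genes the median difference was -0.02, and 45.6% of genes had a difference above 0; 5.03% had all knockout arrays above all wild-type arrays and 7.73% had all below. The genes of the lists that passed the test numbered 9, 8 of them higher and Nxnl1 lower.

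**Figure D3:**
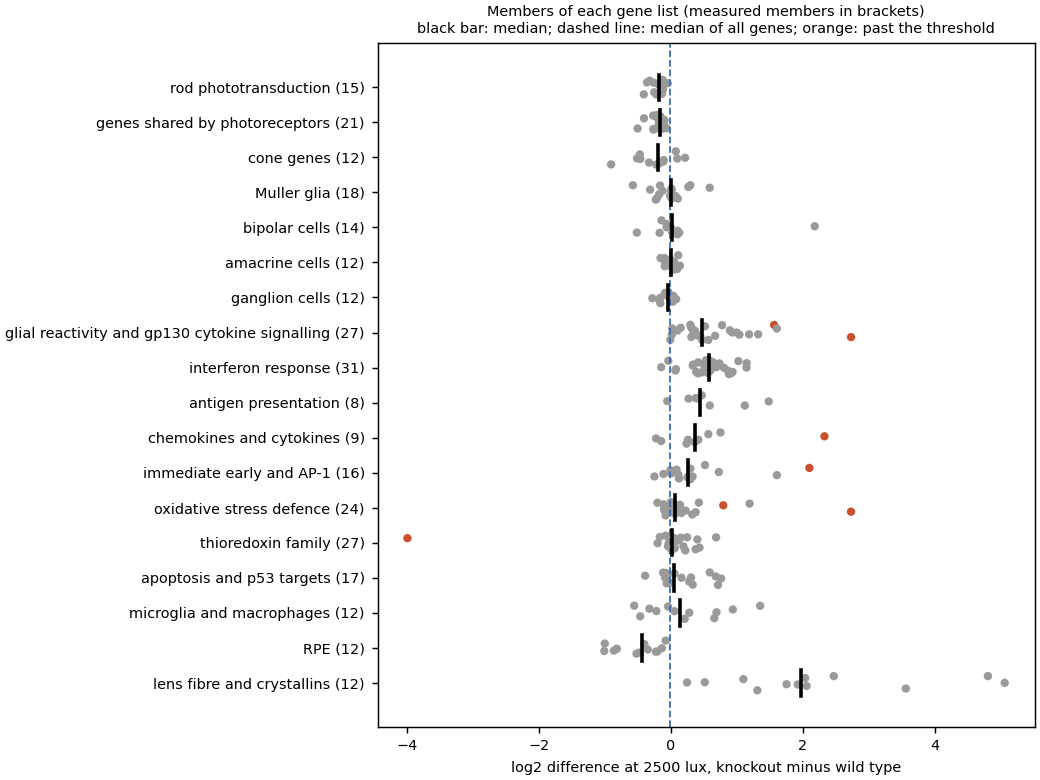
Log2 difference at 2500 lux (x axis) of each measured member of 18 gene lists (rows, with the number of measured members); points are genes, orange where past the threshold, black bars list medians, and the dashed line the median of all genes. Interferon and glial lists lie to the right of 0 with medians of 0.57 and 0.47, and all rod genes to the left with a median of -0.18.

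Glial reactivity and signalling through the cytokine receptor subunit gp130 had 27 measured genes. Gpx3 and Ednrb passed as higher, beside 0.119% of all genes. Of the 27 differences 26 were above 0, beside 45.6% of all genes, and the median was 0.47. In 9 all knockout arrays were above all wild-type arrays, beside 5.03% of all genes. Fosl1, a partner in AP-1 dimers, had 2.21, 2.21 and 3.65 in wild type and 3.83, 4.37 and 4.69 in knockout (adjusted p = 0.136), and Emp1, a membrane protein, had a difference of 1.04 (adjusted p = 0.226). Gfap, the classical marker of reactive glia, had 7.09, 8.24 and 8.50 against 7.55, 8.40 and 8.19. The groups overlapped, and the difference was 0.10 (SE 0.32); its sign turned without wild-type replicate 1 (-0.33) or knockout replicate 2 (-0.08). The mean level of the list was 7.59, 7.91 and 8.44 in wild type and 8.57, 8.69 and 8.73 in knockout.

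None of 31 measured interferon response genes passed, but 29 had a difference above 0, beside 45.6% of all genes, with a median of 0.57. At an unadjusted p under 0.05, 16 were higher, beside 3.36% of all genes. Dtx3l, a ubiquitin ligase of this response, had 5.35, 5.54 and 6.04 in wild type and 6.65, 6.61 and 6.74 in knockout (log2 1.02, adjusted p = 0.170). Knockout arrays were above all wild-type arrays in 13 of the 31 genes, Ifit2, Iigp1 and Irf8 included, beside 5.03% of all genes. Wild-type replicate 3 was the highest wild-type array in 28 of the 31, and the mean level of the list was 6.03, 6.30 and 6.89 in wild type and between 6.90 and 7.03 in knockout. Ifitm1 was not on this list. Antigen presentation had 8 measured genes and 0 calls, with 3 higher at an unadjusted p under 0.05 and a median of 0.44. Tap1, which moves peptides to class I molecules, had 4.30, 5.47 and 7.27 in wild type and 6.85, 7.21 and 7.43 in knockout, so wild-type replicate 3 lay among the knockout arrays. Complement had 5 measured genes, 0 calls and a median of -0.13.

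**Figure D4:**
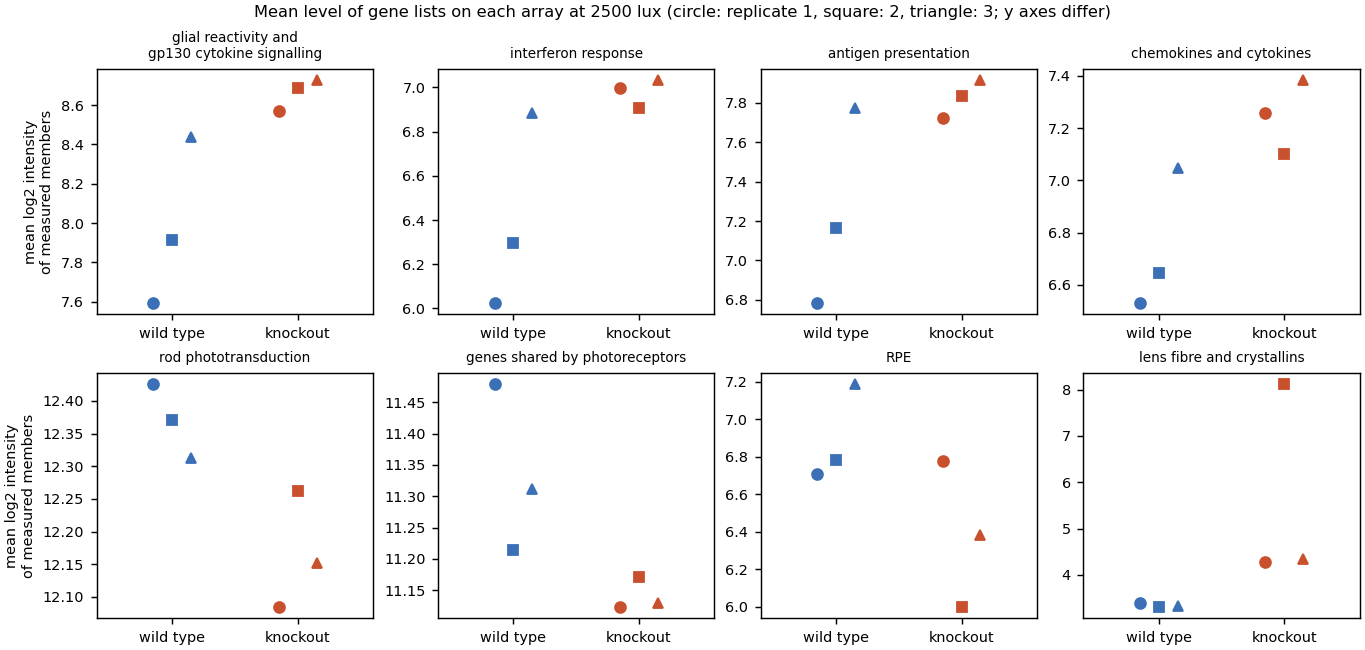
Mean log2 intensity of the measured members of 8 gene lists (y axes, which differ between panels and do not start at 0) on the 3 wild-type (blue) and 3 knockout (orange) arrays at 2500 lux; circles, squares and triangles are replicates 1, 2 and 3. In the interferon panel wild-type replicate 3, at 6.89, is close to the knockout arrays at 6.90 to 7.03 and apart from the other wild-type arrays at 6.03 and 6.30; the lens panel shows knockout replicate 2 at 8.11.

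Without wild-type replicate 3, list members that passed numbered 22 in place of 9, 21 of them higher; without wild-type replicate 1 or 2 they numbered 1, Nxnl1, with 0 higher. The fit without wild-type replicate 3 called 53 genes higher (0.486%) and 3 lower. Among them were 14 of the 15 genes of the fit with all arrays, and Gpx3 was the exception. Among glial genes Cd44, Fosl1, Lcn2, Socs3 and Timp1 were added, among interferon genes Ddx58, Dtx3l and Ifit2, and in antigen presentation Tap1 and Tapbp. These names were chosen after their values were seen. Lcn2, an iron-binding acute-phase protein, illustrates them: it had 9.41 and 9.99 on the wild-type arrays kept, 11.11 on the one left out, and 11.64, 11.08 and 11.35 in knockout. For the bipolar cell channel gene Trpm1, also added, the values were 3.42 and 3.55, then 5.61, and 6.18, 6.45 and 6.49 in knockout. Nothing in the labels sets this array apart.

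Among 9 measured chemokines and cytokines Ccl2 was the 1 that passed, and the median was 0.36. Il33, an alarm cytokine held in the nucleus, had 8.89, 9.50 and 9.74 against 10.11, 10.07 and 10.20 (adjusted p = 0.340), and Vcam1, an adhesion molecule, a difference of 0.57 (adjusted p = 0.640). Of 7 genes of leukocyte adhesion and vascular response Tnfrsf12a passed. Microglia and macrophage markers gave 0 calls of 12 and a median of 0.13 that joined opposite values. Lyz2, lysozyme of myeloid cells, had 4.74, 4.95 and 5.43 against 6.21, 6.40 and 6.56 (log2 1.35, adjusted p = 0.090), and Cd68, a lysosomal protein of phagocytes, a difference of 0.94 (adjusted p = 0.525). Tyrobp, a signalling adaptor of microglia, had a difference of -0.46 (adjusted p = 0.920). The mean of the 12 was 5.55 to 5.86 in wild type and 5.70 to 6.12 in knockout, so the ranges overlapped.

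Immediate early and AP-1 genes had 16 measured members, of which Myc passed, and a median of 0.26. The difference for the RNA-destabilising factor Zfp36 was 0.73 (adjusted p = 0.777). Oxidative stress defence had 24 measured genes; Gpx3 and Slc7a11 passed, and the median was 0.07. Hmox1, the heme-degrading enzyme, had 4.67, 5.21 and 5.52 in wild type and 6.02, 6.25 and 6.72 in knockout (log2 1.19, SE 0.26, adjusted p = 0.181). Txnrd1, cytosolic thioredoxin reductase, had a difference of 0.38 (adjusted p = 0.747). In the thioredoxin family, to which Nxnl1 belongs, Nxnl1 alone passed among 27 measured genes, and the median was 0.01. Differences of Nxn, a further thioredoxin-like protein, and of Txnrd3 were 0.43 and 0.69 (adjusted p = 0.747 and 0.820).

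Photoreceptor genes gave 0 calls in any of 3 lists, and nearly all their differences were slightly below 0. None of the 15 rod genes had a difference above 0, beside 45.6% of all genes; their median was -0.18, and in 7 all knockout arrays were below all wild-type arrays, beside 7.73% of all genes. Cnga1, a subunit of the rod channel, had 12.75, 12.64 and 12.37 against 12.25, 12.20 and 12.08 (log2 -0.41, adjusted p = 0.518), and Gngt1, a transducin subunit, a difference of -0.36 (adjusted p = 0.642). All 21 genes shared by rods and cones also had a negative difference, with a median of -0.17 and 5 below all wild-type arrays. Of 12 cone genes 9 had one, and the median was -0.20. Arr3, cone arrestin, had 10.12, 9.43 and 9.12 in wild type and 8.42, 8.49 and 9.04 in knockout; the groups did not overlap but came close, and the difference of -0.90 did not pass (adjusted p = 0.514). Opn1mw, the medium-wavelength cone opsin, had a difference of -0.51 (adjusted p = 0.732) and Opn1sw, the short-wavelength opsin, one of -0.46 with overlapping groups.

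Other cell types of the retina gave 0 calls each. Medians were 0.01 for 18 Müller glia genes, 0.01 for 14 bipolar cell genes, 0.00 for 12 amacrine, -0.04 for 12 ganglion and -0.04 for 4 horizontal cell genes, 0.06 for 4 astrocyte genes and -0.20 for 9 genes of endothelial cells and pericytes. Within Müller glia, Abca8a, a lipid transporter, had a difference of -0.58 and Vim, an intermediate filament protein, one of 0.29 (adjusted p = 0.468 and 0.721), with groups that did not overlap. Synaptic genes (25 measured) had a median of 0.01. Stress and metabolic lists likewise gave 0 calls. Apoptosis and p53 targets (17 genes) had a median of 0.05, with 5 genes above all wild-type arrays in knockout, beside 5.03% of all genes. Among the 5 were Casp8, an initiator caspase, and Gadd45b, a growth-arrest gene, at 0.71 and 0.76 (adjusted p = 0.483 and 0.673). The unfolded protein response had a median of 0.08, heat shock -0.01, cholesterol synthesis -0.09, glycolysis -0.01 and circadian genes -0.02. RPE genes had 0 calls of 12 and a median of -0.44, lens genes 0 of 12 and 1.98, sex-linked genes 0 of 4 and -1.24, the anterior eye 0 of 3 and 0.07, and the 1 measured blood gene a difference of -0.05.

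A deletion bred into a strain can carry flanking DNA of another origin, so the genes next to Nxnl1 were counted. Of 100 measured neighbours, 50 on each side in the RefSeq order, 0 passed at 2500 lux; 6 had an unadjusted p under 0.05, which is 6%, beside 3.36% higher and 3.53% lower among all genes. At 50 lux 2 of them passed as higher, beside 0.293% of all genes (0.11% passed as lower): Haus8, a spindle component, with 0.95 (adjusted p = 0.023), and Bst2, an antiviral membrane protein of the interferon response, with 1.45 (adjusted p = 0.047). At 2500 lux their differences were -0.21 and 0.49. At 5000 lux 0 passed. Hmox1, the oxidative stress gene described above, is 1 of these neighbours, 25 measured genes after Nxnl1. Its difference at 2500 lux, 1.19 (limma adjusted p = 0.181), was the largest rise among the 100. Whether flanking DNA had a part in it was not tested.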

How the data were processed

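The authors deposited linear intensities, 1 for each probe set on each array, processed with GCRMA per the submitters' processing notes; its version and settings, and any batches, are not given in these sources. Log2 was taken of the deposited intensities, with no pseudocount. Probe sets above log2 4 on at least 2 arrays were tested (23320 of 45037). The model, in limma 3.58.1, had 6 group means over the 16 arrays (R 4.3.3; eBayes without trend, 10 residual and 3.18 prior degrees of freedom), and 5 contrasts were read with Benjamini-Hochberg adjustment and a threshold of 0.05. The brightest probe set with 1 symbol stood for a gene; 34945 probe sets had 1 symbol, 932 several and 9160 none. Where all arrays of a group were at or below log2 4, they were raised to it and a fold is a lower bound. The number of arrays limits the precision. The comparison, the 34 gene lists and the tests were chosen with earlier results of these data known. Named genes were Nxnl1 and Nxnl2, those past the threshold with groups apart, the 4 smallest p of each list, and, in directions with under 5 calls and in each difference between doses, the 5 smallest p. Of 10916 genes 10894 matched the RefSeq table. The fit was tested on simulated data. Same-numbered arrays of the 2 genotypes were treated as unpaired. Alternatives covered the filter, a pseudocount of 16, quantile and median scaling, trend, array weights, the 6 arrays alone, a replicate block and each array left out.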

Additional observations from a re-analysis of the deposited data

Results flagged for a closer look

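Each result here is a genotype difference (knockout minus wild type) at 2500 lux that differed from the one at another dose in limma's test of that difference itself. Against 50 lux, Tnfrsf12a (the cytokine receptor, on its second probe set) differed by 1.54 (adjusted p = 0.044) and Ednrb (the endothelin receptor, on 1 of its dimmer probe sets) by 2.56 (adjusted p = 0.038). Against 5000 lux, the same Tnfrsf12a probe set differed by 1.87 and a further Ednrb probe set by 2.79 (adjusted p = 0.039 each). That Ednrb probe set was above log2 4 only on the knockout arrays at 2500 lux and on wild-type replicate 3 at 5000 lux (4.08). It thus entered the test through the group where it was high, and its difference between doses supports nothing further. The calls of both genes were lost in most fits with an array left out: higher calls fell to 0 in 6 of 11 against 50 lux and in 7 of 11 against 5000 lux. The Tnfrsf12a values were 1.56 at 2500 lux, 0.03 at 50 lux and -0.31 at 5000 lux.

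On 8 probe sets, each of a different gene, the difference at 2500 lux was lower than that at 50 lux. With 1 probe set per gene 7 genes passed, because the Lrrc2 probe set here was not its brightest. The largest gap was in the endothelin gene Edn2, at -3.64 (adjusted p = 0.010), followed by the ribonuclease gene Rnase4 at -2.66 (adjusted p = 0.0065), Nudt6, a nudix hydrolase, at -2.16 (adjusted p = 0.0010), Cebpd at -2.05 (adjusted p = 0.044), Zfp469 at -1.82 (adjusted p = 0.047), Lrrc2 at -1.50 (adjusted p = 0.0065), Sox30 at -1.39 (adjusted p = 0.018) and Dnaaf4 at -1.31 (adjusted p = 0.044). In 6 of them (Edn2, Nudt6, Cebpd, Zfp469, Lrrc2 and Sox30) the difference lay between -0.27 and 0.31 at 2500 lux and between 1.44 and 3.79 at 50 lux. Rnase4 and Dnaaf4 had -1.11 and -0.94 at 2500 lux. For Edn2 the wild-type arrays at 50 lux were at 3.57 and 3.89 and the knockout arrays there at 6.83, 7.35 and 8.36. At 50 lux the wild type had 2 arrays, and the mean of 12 lens genes was 3.26 and 4.14 there, beside 6.30 to 8.82 in knockout; its part in these differences was not tested.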

How the results depend on the processing

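Counts are probe sets past the threshold unless stated. For the difference at 2500 lux (22) they were 26 without the filter, 21 with the pseudocount, 25 with quantile and 24 with median scaling, 18 with trend, 27 with the replicate block, 5 under the stricter filter (log2 6 on at least 3 arrays), 39 with array weights and 4 in the 6 arrays alone, and 2 to 86 with an array left out. At 50 lux (76) they were 163 without the filter, 248 with array weights, 1 in its 5 arrays alone, and 9 to 363 with an array left out; at 5000 lux (1), 0 in its arrays alone and 1 to 9. The difference between 2500 and 50 lux (11) gave 33 without the filter, 4 with the pseudocount, 7 with trend, 22 with array weights, 6 in its own arrays, 27 with the replicate block, and 3 to 15 with an array left out. Between 2500 and 5000 lux (2) it gave 1 without the filter, with the stricter filter, with the pseudocount and with the replicate block, 0 with array weights and in its own arrays, and 0 to 28. List genes past the threshold (9) numbered 5 without the filter, 3 with the stricter one, 2 in the 6 arrays alone and 1 to 22 with an array left out. Neighbours of Nxnl1 (0) numbered 1, Hmox1, with array weights and 0 in every fit with an array left out. Fewer probe sets tested or fewer arrays account by construction for part of the losses; otherwise the cause was not tested. Deviations of same-numbered arrays of the 2 genotypes at 2500 lux correlated at 0.26, 0.05 and 0.36, and those of arrays with different numbers at -0.32 to 0.10. The highest values, 0.36 and 0.26, thus came from same-numbered arrays. Whether replicate numbers stand for a shared source of spread was not tested. Signs turned, with an array left out, for 4 genes that had not passed: the difference ran from -0.33 to 0.38 for Gfap, -3.71 to 0.86 for Xist, -2e-04 to 0.088 for Sox30 and -0.019 to 0.16 for Lrrc2. The values for Lrrc2 are those of its brightest probe set. The 15 called genes kept their sign in every setting that tested them, which for the fits with an array left out was fixed by groups that did not overlap. Signal near background limits the 8 genes whose brightest probe set is given as a lower bound, Nxnl1 among them, and the dimmest Ednrb probe set. Ccnd2 and Crtap read a single value each, 4.24 and 5.09, on both knockout arrays at 5000 lux and on some arrays of other groups. The second Tnfrsf12a probe set read 5.13, 5.14 and 5.14 on the wild-type arrays at 2500 lux. It read 5.13 again on knockout replicate 2 at 5000 lux. The 2 dimmer Ednrb probe sets read 5.23 and 2.63 on both wild-type replicates 1 and 2 at 2500 lux. The folds and SE of all these probe sets may be limited in the same way, which was not tested.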
